A study of Bos taurus with 6 samples.

Results

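The enzymes that remove superoxide and one of the enzymes that removes the hydrogen peroxide it yields were followed in bovine blastocysts derived from oocytes matured with or without melatonin (MT). The set held 5 genes, SOD1, SOD2, SOD3, CCS and CAT, and each matched 1 row by gene name in a table of 36075 genes. The genes were chosen by name with the MT-treated and control values of this table already known, so their differences between the groups are described here and were not tested. In both groups the oocytes came from slaughterhouse ovaries, were matured in vitro for 22 h, fertilized in vitro and cultured to blastocysts. The MT-treated group received 1e-07 mol/L MT in the maturation medium, and the control group received none. Each group had 3 libraries from 3 in vitro production runs, with 3 blastocysts pooled for each library. The labels give the group and replicate number, and the concentration, pool size and runs come from the study's methods. The labels name a TruSeq kit and the methods name Smart-seq2, so the library chemistry is uncertain.

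Superoxide dismutases convert superoxide into hydrogen peroxide and oxygen. SOD1 is the copper and zinc enzyme of the cytosol and the mitochondrial intermembrane space, SOD2 is the manganese enzyme of the mitochondrial matrix, and SOD3 is the secreted copper and zinc enzyme. CCS is the chaperone that hands copper to SOD1 and helps to form its disulfide bond, and CAT encodes catalase, which breaks down hydrogen peroxide in peroxisomes. Mammalian embryos in culture are sensitive to reactive oxygen species, and these enzymes belong to their defense.

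Values were deposited as TPM, in which reads are divided by gene length and scaled within a library, so levels of different genes can be set side by side within a library. TPM keeps no read counts, and the depth behind a value is therefore unknown. The listed values summed to 936783 to 937698 TPM in control and to 912686 to 913707 TPM in MT-treated libraries, so the totals were not equal between the groups. Between 8854 and 8953 genes were above 0 in the control libraries, against 14372 to 14408 in the MT-treated libraries. Of the 11953 genes tested, which reached 1 TPM in 3 or more libraries, 4037 were listed at 0 in all control libraries and 360 in all MT-treated libraries. Among genes at or near 0 in control was RARS1, an aminoacyl-tRNA synthetase gene that every cell needs, with 0, 0.02 and 0 TPM in control and 35.5 to 36.6 TPM in MT-treated libraries. A listed 0 is therefore given here as the value in the table and not as absence of the transcript, for CCS and CAT as for every other gene. A difference between the groups in how libraries were made or processed cannot be told apart from the treatment in these values. Markers of the blastocyst lineages were present in part. The summed trophectoderm markers lay between 11934 and 12261 TPM in control and between 11042 and 11447 TPM in MT-treated libraries, and single markers differed in both directions. CDX2 and ELF5 were listed at 0 in every control library, whereas TFAP2A had 31.5 to 38.9 TPM in control and 0.46 to 0.55 TPM after MT, and IFNT had 184 to 188 and 112 to 114 TPM. Inner cell mass markers summed to 403 to 407 TPM in control and 399 to 399.9 TPM in MT-treated libraries, but single markers differed in both directions. KLF4 had 17.3 to 19.2 TPM in control and 83.6 to 84.0 TPM after MT, DPPA3 had 194 to 198 and 106 to 110.2 TPM, SOX2 had at most 0.02 TPM in control and 5.88 to 6.95 TPM after MT, and NANOG was at 0 in every control library. Hypoblast markers summed to 204 to 208 TPM in control and 524 to 528 TPM in MT-treated libraries, and 4 of 6, including SOX17, were at 0 in every control library. Cumulus and granulosa cell markers summed to 229.6 to 236 TPM in control and 202 to 206 TPM in MT-treated libraries, almost wholly from HSD3B1, CYP11A1 and FSHR, and 7 of 11, including FOXL2, HAS2 and PTX3, were at 0 in every control library and 5 in every MT-treated library. All 10 oocyte transcripts were at 0 in the control libraries, and their sum reached at most 1.5 TPM in an MT-treated library. In pooled embryos, fewer cells of a type and less RNA per cell cannot be told apart, and the part of these markers in the differences described here was not tested.

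SOD1 and SOD2 were both abundant in the 2 groups and lower in the MT-treated libraries. SOD1 (ENSBTAG00000018854) was measured at 544, 539.9 and 518 TPM in control, and MT-treated libraries held 376, 369 and 376 TPM. Every control library lay above every MT-treated library, and 96.1% of all genes tested had groups that likewise did not overlap in either direction. The means were 534 ± 13.8 TPM in control and 374 ± 3.95 TPM in MT-treated blastocysts (SD, n = 3 each), a ratio of 0.7001 and a difference of -0.51 on the log2(TPM + 1) scale (standard error 0.023). SOD1 ranked from 305 to 318 in control and from 383 to 387 in MT-treated libraries when genes were ordered by TPM. The MT-treated libraries listed more genes, and ranks are therefore also given as shares. SOD1 exceeded 96.4% to 96.6% of the detected genes in control and 97.3% in the MT-treated libraries.

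For SOD2 (ENSBTAG00000006523) the control values were 189.7, 184 and 182 TPM and the MT-treated values were 120.5, 122 and 115 TPM, again without overlap. The means were 185 ± 4.13 and 119 ± 3.43 TPM (SD, n = 3 each), a ratio of 0.644 and a log2 difference of -0.63 (standard error 0.030). It exceeded 90.3% to 90.8% of the detected genes in control and 92.5% to 92.8% in MT-treated libraries. By rank SOD2 stood at 819 to 863 in control and at 1030 to 1087 in MT-treated libraries. More genes therefore lay above SOD1 and SOD2 in the MT-treated libraries, and the larger shares are taken over longer lists of detected genes.

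The size of both differences depended on how libraries were scaled to each other. Among the 5988 genes that reached 1 TPM in each of the 6 libraries, the median log2 difference was -0.27. Centring each library on the median of these genes removed a shift of -0.48 between the groups, after which the log2 difference was -0.034 for SOD1 and -0.15 for SOD2. After quantile normalization, by which all libraries are given a common distribution of values, it was -0.37 for both. Among 1006 genes that reached 100 TPM in every library, the median log2 difference was -0.097, and 22.1% of these genes had a lower value than SOD1 and 16.1% a lower value than SOD2.

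The ratio of SOD1 to SOD2 within a library does not depend on a common scaling factor. Control libraries had ratios of 2.87, 2.94 and 2.85, and MT-treated libraries had ratios of 3.12, 3.03 and 3.26. The groups did not overlap, with means of 2.89 ± 0.0488 and 3.14 ± 0.114 (SD, n = 3 each), a relative difference of 8.79%. SOD1 supplied 74.3% ± 0.321 of the summed TPM of the superoxide dismutases in control and 75.8% ± 0.663 in MT-treated blastocysts (SD, n = 3 each). That sum was 719 ± 17.1 TPM in control and 493 ± 3.39 TPM in MT-treated blastocysts (SD, n = 3 each). The relative difference of the sum was -31.4%. Quantile normalization applies no common factor, and under it the log2 difference was -0.37 for SOD1 and -0.37 for SOD2, so the difference in their ratio was not kept.

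**Figure D1:**
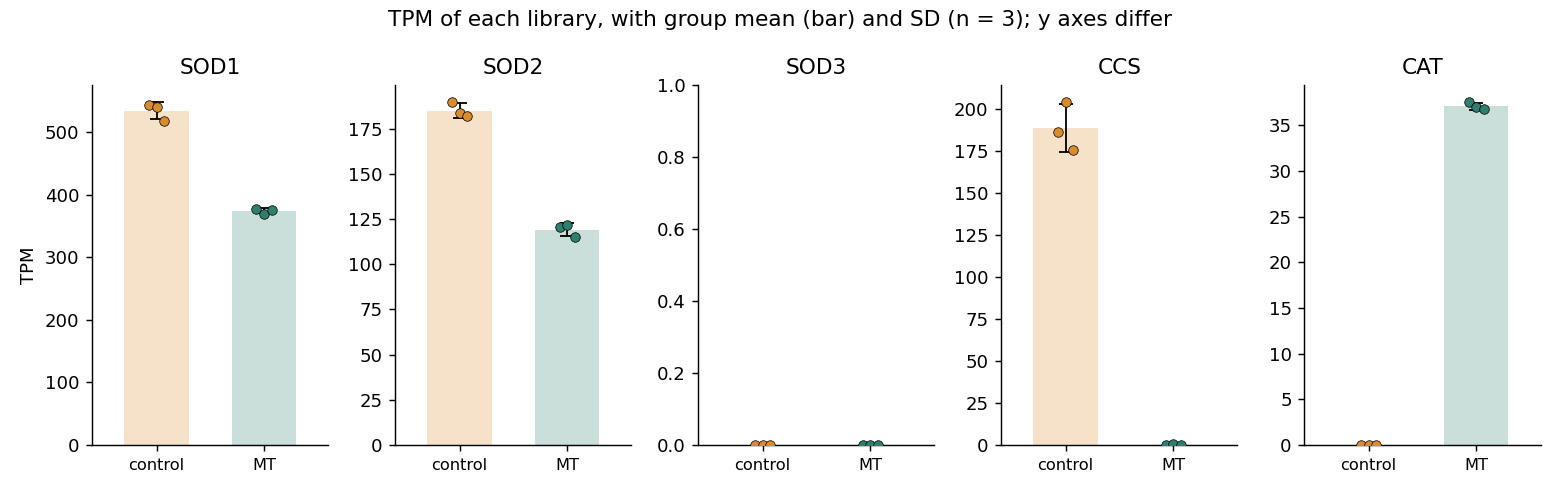
TPM of SOD1, SOD2, SOD3, CCS and CAT in each of the 3 control (orange) and 3 MT-treated (green) libraries, with bars for the group mean and error bars for the SD; the y axes differ between panels. SOD1, SOD2 and CCS were lower and CAT higher in the MT-treated libraries without overlap, and SOD3 was listed at 0 in all 6 libraries.

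SOD3 (ENSBTAG00000013980), the secreted enzyme, was listed at 0 TPM in each of the 6 libraries. It did not pass the filter on low values and was the only gene of the set that did not. No other row of the table has a description that names superoxide dismutase or catalase, so the summed TPM of the dismutases consisted of SOD1 and SOD2 alone.

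CCS had the largest difference between the groups of the 5 genes on the log2 scale. Control values of CCS (ENSBTAG00000004343) were 187, 204 and 175.5 TPM, and those after MT were 0, 0.41 and 0 TPM. The control mean was 189 ± 14.5 TPM (SD, n = 3), close to that of SOD2, and the values of CCS and SOD2 overlapped in control. The log2(TPM + 1) difference was -7.40 (standard error 0.18), and it was -10.10 with a pseudocount of 0.1, so its size is set by the pseudocount and no fold is given. Of the 3 genes abundant in control CCS varied most, with a coefficient of variation of 7.69% against 2.58% for SOD1 and 2.23% for SOD2. Among 1098 genes with a control mean of 100 to 400 TPM, the median coefficient of variation was 1.81%, and 96.4% varied less than CCS. Of the same 1098 genes, 25 (2.28%) had an MT-treated mean under 1 TPM. The control libraries held 2.91, 2.64 and 2.95 SOD1 TPM for each CCS TPM. In the MT-treated libraries SOD1 was above 369 TPM while its chaperone was at 0 in 2 of 3, and in the library with 0.41 TPM of CCS the ratio was 901.

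CAT differed in the opposite direction. It was listed at 0.04, 0.02 and 0 TPM in control, where RARS1 was also at or near 0, and CAT (ENSBTAG00000020980) reached 37.6, 37.0 and 36.8 TPM after MT. The MT-treated mean was 37.1 ± 0.393 TPM (SD, n = 3), with a coefficient of variation of 1.06%. The median over the 3611 genes that averaged 20 to 100 TPM after MT was 3.95%, and 5.48% of them varied less than CAT. The log2(TPM + 1) difference was 5.22 (standard error 0.018) and was 8.29 with a pseudocount of 0.1. A control mean under 0.1 TPM was frequent at this level, in 1025 (28.4%) of the 3611 genes. CAT exceeded 79.2% to 79.6% of the detected genes in the MT-treated libraries, and in the control libraries that listed it, 2.46% and 6.85%. Catalase is abundant in red blood cells, and the blood markers summed to 32.8 to 35.1 TPM in control and 161 to 180.4 TPM in MT-treated libraries. Of these markers HBA, a globin gene, was at 32.8 TPM or more in control and at 127 to 147 TPM after MT, HBB was at 0 in every control library and at 23.2 to 24.8 TPM after MT, and CD14, HBM and PTPRC were at 0 in all 6 libraries. ALAS2, an enzyme of heme synthesis in red cell precursors, had at most 0.02 TPM in control and 9.65 to 10.8 TPM after MT. HBA, HBB and ALAS2 were thus higher after MT, as were 61.6% of all genes tested, so their direction does not set them apart. Their part in the CAT difference was not tested.

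**Figure D2:**
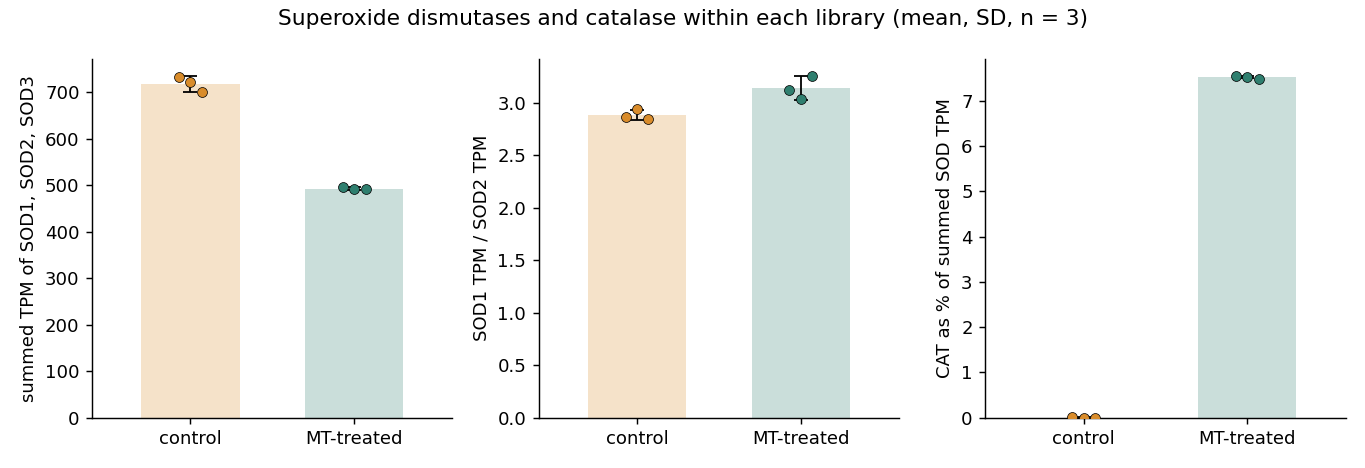
Summed TPM of SOD1, SOD2 and SOD3 (left), the ratio of SOD1 to SOD2 TPM (middle) and CAT as a percentage of the summed dismutase TPM (right) in each library, with bars for the group mean and error bars for the SD (n = 3). The sum was lower and both ratios were higher in the MT-treated libraries, and the groups did not overlap in any panel.

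Set against the dismutases, which produce hydrogen peroxide, CAT reached 7.56%, 7.53% and 7.496% of their summed TPM in the MT-treated libraries and at most 0.00545% in a control library. After MT the ratio of SOD1 to CAT was 10.1 ± 0.120 and that of SOD2 to CAT was 3.21 ± 0.0803 (SD, n = 3). Peroxiredoxins and glutathione peroxidases also remove hydrogen peroxide. In the MT-treated libraries 8 of these genes were above CAT and 3 lay between 1 TPM and the level of CAT. CAT made up 0.350% to 0.3597% of the TPM of all hydrogen peroxide removers there, whereas the 14 other removers summed to 10292 to 10491 TPM in control and 10245 to 10480 TPM in MT-treated libraries.

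The order of the levels differed between the groups. In control it was SOD1, then CCS and SOD2, which overlapped, then CAT at or near 0 and SOD3 at 0. In MT-treated blastocysts it was SOD1, SOD2, CAT, then CCS, at 0 in 2 of 3 libraries, and SOD3 at 0. The 5 genes together summed to 908 ± 28.2 TPM in control and 530.3 ± 3.66 TPM in MT-treated blastocysts (SD, n = 3 each). All 4 genes that passed the filter had groups that did not overlap, as did 96.1% of the 11953 genes tested, so this count does not set them apart.

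**Figure D3:**
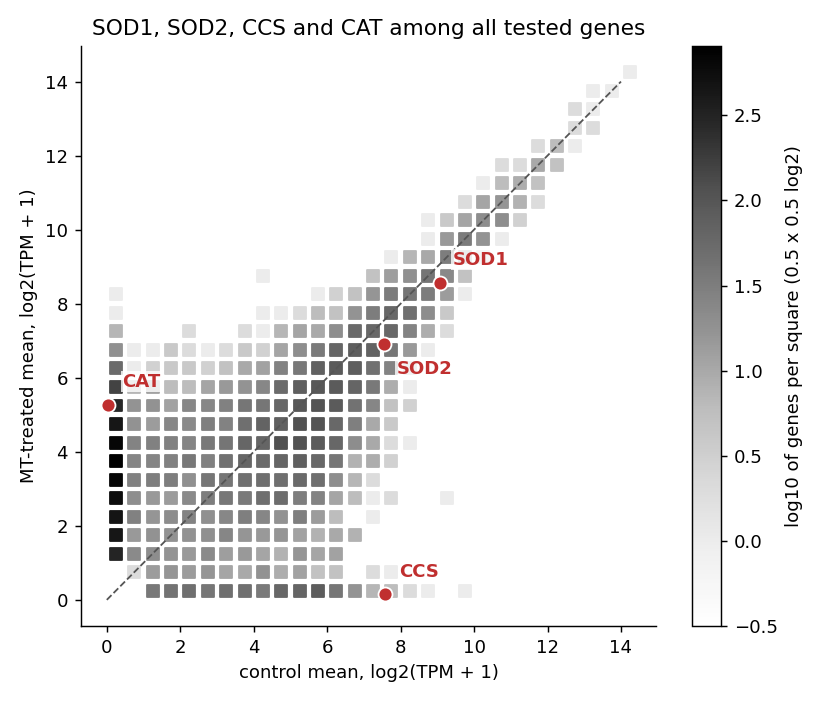
Mean log2(TPM + 1) in control (x axis) and MT-treated (y axis) libraries for all 11953 tested genes, counted in squares of 0.5 log2 (grey, log10 of the number of genes), with SOD1, SOD2, CCS and CAT in red and a dashed line of equal levels. SOD1 and SOD2 lie just under the line within the main cloud, CAT lies on the dense column of genes near 0 in control, and CCS lies at the sparse right end of the genes near 0 in MT-treated blastocysts.

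The genes whose values were most like those of each enzyme over the 6 libraries were found by the mean absolute difference of log2(TPM + 1) among genes with a symbol. For SOD1 these were B2M, ATP5F1E and SNX3, which differed from it by 0.040, 0.041 and 0.043 on average. For SOD2 they were CUTA, GALM and PHF5A, at 0.035, 0.037 and 0.038. For CAT they were RARS1, DPF3 and CERS5, at 0.029 each, and 1025 genes lay within 0.5 of CAT, against 170 for SOD1 and 367 for SOD2. CCS had few like it, with 16 genes within 0.5, led by OTOP1, RIC1 and SNORA20 at 0.19, 0.19 and 0.25. With libraries that fall into 2 groups, this likeness reflects the 2 group levels and little else.

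The protein-coding neighbours of the 5 genes were read by name from RefSeq (ARS-UCD2.0) after the values had been seen, and none overlapped its neighbour. CAT lies between ABTB2 and ELF5. ABTB2 had at most 0.01 TPM in control and 5.76 to 6.39 TPM in MT-treated libraries, and ELF5, a trophectoderm transcription factor, had 0 TPM in control and 12.7 ± 0.622 TPM after MT (SD, n = 3). Both were therefore near 0 in control and above 5 TPM in MT-treated libraries, as CAT was near 0 and above 36 TPM. Of all 11953 genes tested, 4037 were listed at 0 in every control library, so this likeness does not set the neighbours of CAT apart. CCS lies between CCDC87, listed at 0 in all libraries, and RBM14, which had 20.2 ± 0.393 TPM in control and 22.6 ± 1.22 TPM in MT-treated blastocysts (SD, n = 3 each). Neither neighbour of CCS shared its pattern. SOD1 lies between SCAF4, with 54.0 ± 5.47 and 16.1 ± 2.69 TPM, and TIAM1, with 0.167 ± 0.0153 and 23.3 ± 0.880 TPM (SD, n = 3 each), so that its neighbours differed in opposite directions. SOD2 lies between FNDC1, listed at 0 in all libraries, and WTAP, which has 2 rows, 1 with 86.1 ± 3.54 TPM in control and 24.2 ± 0.526 TPM after MT and the other with 5.67 ± 4.53 and 9.73 ± 1.63 TPM (SD, n = 3 each). SOD3 lies between DHX15, with 23.6 ± 0.513 and 30.2 ± 0.796 TPM (SD, n = 3 each), and CCDC149, which like SOD3 was listed at 0 throughout.

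**Figure D4:**
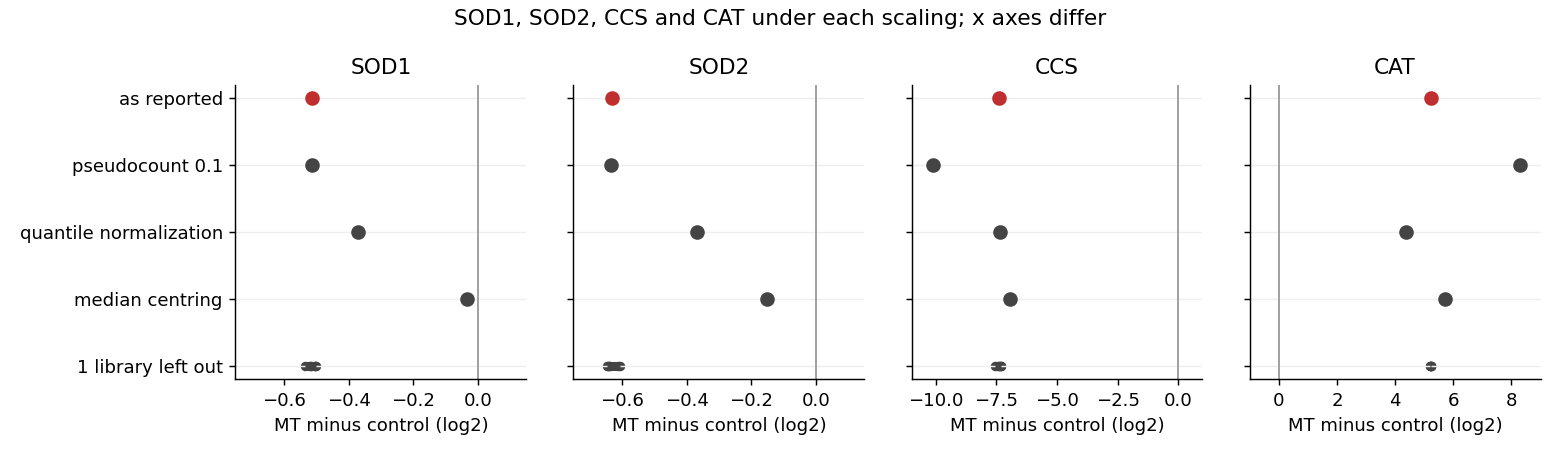
Difference between MT-treated and control means on the log2 scale for SOD1, SOD2, CCS and CAT as reported (red) and with a pseudocount of 0.1, quantile normalization, median centring, and each library left out in turn (black); the x axes differ between panels and the vertical line marks 0. No setting turned a direction, but the difference of SOD1 shrank from -0.51 to -0.034 under median centring.

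Genes that supply, feed or regulate these enzymes were examined as 7 lists, fitted with limma and Benjamini-Hochberg adjustment over all 11953 genes. The lists too were chosen with earlier results known, so the p-values describe single genes and are no independent support. No p is given for a gene at or near 0 in a whole group, since such a gene passed the filter only through the other group. Of 96 list genes tested, 58 (60.4%) were higher after MT and 32 (33.3%) were lower, while 61.6% of all genes tested were higher and 34.1% lower, together 95.7%. No control library listed 27 of these 58 above 0. The shares over the lists were thus near those over all genes tested. With quantile normalization 48 list genes were higher and 44 lower, beside 6614 higher and 4604 lower of all 11953. Median centring gave 8412 higher and 3038 lower of all 11953, and the fit of the 6925 genes detected in each of the 6 libraries gave 2814 higher and 3626 lower. Counts of single lists under these settings are to be read against those totals, and none was tested against them.

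Copper reaches CCS and SOD1 through the importer SLC31A1, while ATOX1 delivers copper to the exporting pumps ATP7A and ATP7B. Of 17 copper genes tested, 8 were higher and 7 lower (median log2 difference -0.0035, against 1.12 over all genes tested), and after median centring 11 were higher and 6 lower. SLC31A1 rose from 59.4 ± 0.71 to 79.7 ± 0.986 TPM (SD, n = 3 each; log2 difference 0.42, adjusted p = 2.09e-06 by limma). ATOX1 was lower, at 1140.1 ± 25.8 and 919 ± 30.1 TPM (SD, n = 3 each; log2 difference -0.31, adjusted p = 5.56e-05 by limma), but higher after median centring, at 0.17. The pumps differed in opposite directions. ATP7A had 3.17 to 4.10 TPM in control and 20.9 to 23.0 TPM in MT-treated libraries (log2 difference 2.31, adjusted p = 3.47e-07 by limma), and ATP7B had 26.9 to 28.5 TPM and 0 to 0.02 TPM. SLC31A1 was higher after MT, as were 61.6% of all genes tested, and a link to the low values of CCS was not tested. SLC31A2, of the same list, had 12.7 to 14.2 TPM in control and at most 0.14 TPM in MT-treated libraries. The metalloreductase STEAP4 was listed at 0 in control and at 12.5 to 14.3 TPM in the MT-treated libraries.

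Of 12 zinc and manganese transporters tested, 9 were higher and 2 lower (median log2 difference 1.88), and 3 of the 9 were listed at 0 throughout the control group. With quantile normalization 7 were higher and 4 lower, and among genes above 0 in all 6 libraries 5 were higher and 1 lower (median 0.74). SLC39A8, an importer of manganese and zinc and 1 of the 2 lower genes, had 8.13, 8.51 and 7.43 TPM in control. It was listed at 0 in every MT-treated library. SLC11A2, of the same list, was higher, at 0.377 ± 0.0379 and 57.3 ± 1.03 TPM (SD, n = 3 each). SLC39A14 did not pass the test, at 13.8 ± 0.207 and 17.5 ± 7.69 TPM (SD, n = 3 each; adjusted p = 0.556 by limma). The listed transporters thus did not share 1 direction, and a link to SOD2 was not tested. From the list of regulators, SIRT3, the mitochondrial deacetylase that acts on the SOD2 protein, had 32.7, 31.0 and 31.1 TPM in control and was listed at 0 after MT. Of 9 superoxide-forming genes tested, 4 were lower and 5 were higher, and no control library listed any of the higher ones above 0. After median centring 3 were lower and 6 higher. NOX4, a NADPH oxidase, had 88.9, 94.7 and 78.1 TPM in control and was listed at 0 in each MT-treated library. XDH, xanthine dehydrogenase, was listed at 0 in control and at 12.2 to 12.5 TPM in MT-treated libraries.

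Catalase enters peroxisomes through the receptor PEX5. Of 18 peroxisome import and biogenesis genes tested, 14 were higher and 4 lower (median log2 difference 2.05), and 7 of the 14 were at 0 in every control library, but with quantile normalization 8 were higher and 9 lower. PEX5 was listed at 0 throughout the control group and at 12.5, 13.0 and 11.1 TPM after MT. PEX7, the other import receptor, was also listed at 0 in control and had 15.5 to 15.9 TPM after MT. PEX13, a part of the docking complex on the membrane, had 12.9 to 13.7 TPM in control and at most 0.02 TPM in MT-treated libraries. The peroxisomal oxidases and related enzymes counted 3 higher and 1 lower of 4 tested, with ACOX3 listed at 0 in control and at 41.0 to 44.2 TPM after MT.

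Of the 11 other hydrogen peroxide removers tested, 8 were higher and 3 lower, and 4 of the 8 were listed at 0 throughout the control group. Median centring gave 10 higher and 1 lower, and the genes detected in each of the 6 libraries gave 4 higher and 3 lower. PRDX3, the peroxiredoxin of the mitochondrial matrix where SOD2 resides, was listed at 0 throughout the control group and at 48.5 to 49.0 TPM after MT. PRDX5 was lower, at 348 ± 2.97 and 209 ± 2.02 TPM (SD, n = 3 each; adjusted p = 2.24e-08 by limma), a log2 difference of -0.73 beside -0.63 for SOD2. Of 25 regulators tested, 11 were higher and 11 lower, with 8 higher and 16 lower after quantile normalization and 15 higher and 9 lower after median centring. NFE2L2 (NRF2), an activator of antioxidant genes, was lower, at 49.0 ± 1.25 and 23.4 ± 0.310 TPM (SD, n = 3 each; log2 difference -1.03, adjusted p = 1.04e-07 by limma). Its inhibitor KEAP1 was lower by less, with a log2 difference of -0.34 (adjusted p = 1.89e-04 by limma), and higher after median centring, at 0.14. SP1, which binds GC-rich promoters, had a log2 difference of -0.63 (adjusted p = 4.75e-06 by limma). FOXO3, a known activator of SOD2 and CAT, had 2.24, 1.97 and 2.17 TPM in control and 2.49, 3.40 and 2.39 TPM after MT. It did not pass the test (log2 difference 0.26, adjusted p = 0.0581 by limma). After quantile normalization it passed as lower, with a difference of -1.78 (adjusted p = 1.23e-06 by limma).

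**Figure D5:**
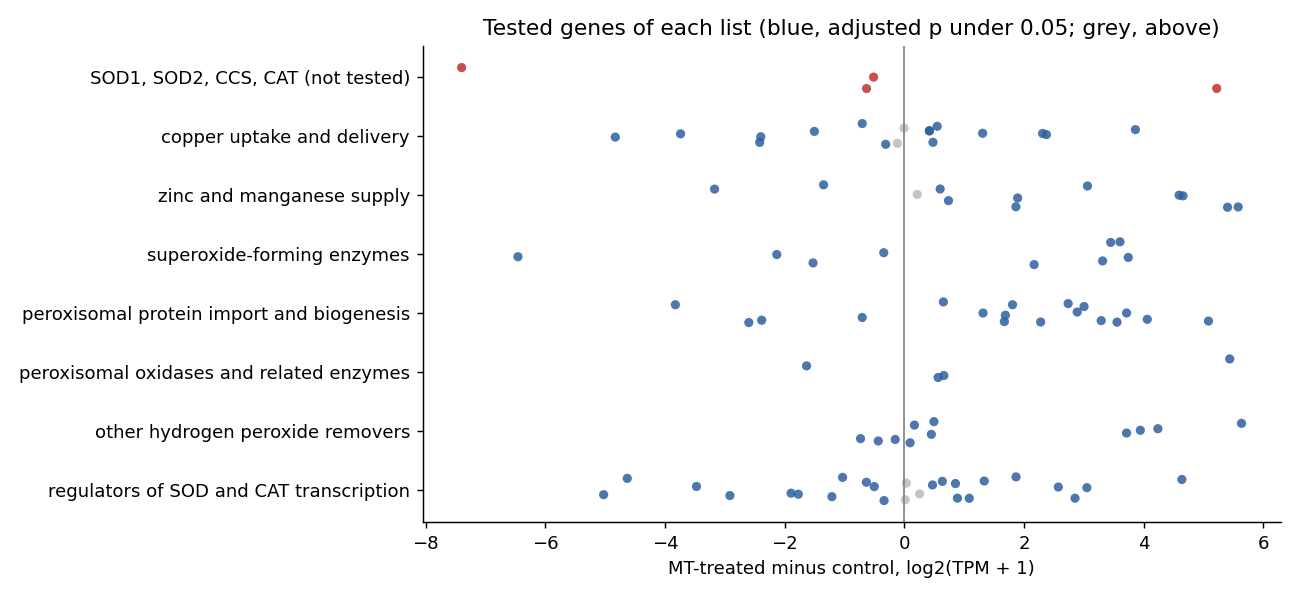
Difference between MT-treated and control means on the log2(TPM + 1) scale for SOD1, SOD2, CCS and CAT (red, not tested) and for each tested gene of the 7 lists (blue, adjusted p under 0.05; grey, not under 0.05), with vertical scatter only to separate points. CCS lies below and CAT near the top of the range that the list genes span. Blue points include 27 genes at 0 in every control library and 4 at 0 in every MT-treated library. These passed the filter only through the other group, so their colour is no support.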

How the data were processed

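RNA from 3 control and 3 MT-treated pools of bovine blastocysts was measured, and groups came from the sample titles. The authors used fastp and FastQC 0.11.9 for quality control and aligned reads with STAR 2.7.9a (ARS-UCD1.2 per the labels, a later build in the study's methods). They counted genes with featureCounts (Subread 1.6.3) and deposited TPM to 2 decimals. How counts became TPM is not given in the sources used here, and TPM cannot enter the count test the study used (DESeq2), so no counting error is given.

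The 5 genes and all lists were chosen with earlier results of these data known. TPM were transformed to log2(TPM + 1). Genes that reached 1 TPM in 3 or more libraries entered a limma fit (version 3.58.1 in R 4.3.3, lmFit and eBayes with trend), with Benjamini-Hochberg adjustment and a threshold of 0.05. List genes were named from the 3 largest rises and falls per list that were called without overlap, plus ATOX1, SLC31A1, ATP7A, ATP7B, PEX5, PEX7, NFE2L2, KEAP1, FOXO3 and SP1. Not every gene that this rule selects is given in the text. Differences are MT-treated minus control, and standard errors of the 5 genes come from the SDs of both groups. The fit was checked on simulated data in which 200 of 11953 genes were changed, and it found 96% of them with 9 false calls. In the data 95.7% of genes were called, so the simulation does not cover that setting. Python 3.11.15 and pandas 2.3.3 were used for the descriptions. Each alternative changed 1 choice: quantile normalization or median centring, the pseudocount (0.1), the filter (none, or 5 TPM), genes with a symbol only, no trend, a replicate block, or 1 library left out. Restricting the fit to genes detected in each of the 6 libraries was chosen after seeing the data.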

Additional observations from a re-analysis of the deposited data

How the results depend on the processing

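Of 102 recomputed values of the main results, 92 stayed within the limits set (1 SD for a value, 1.5 times for a count). Leaving out 1 of 3 libraries cannot move a mean by 1 SD of the same libraries, so those runs could only stay within. With another pseudocount or scaling, SOD1 and SOD2 stayed within only with a pseudocount of 0.1 (-0.51 and -0.63). CCS stayed within only with quantile normalization (-7.37), and CAT with none. No log2 difference of SOD1, SOD2, CCS or CAT changed direction. With a pseudocount of 0.1 the log2 difference was -10.10 for CCS and 8.29 for CAT, with quantile normalization -0.37 for SOD1, -0.37 for SOD2 and 4.37 for CAT, and with median centring -0.034 for SOD1, -0.15 for SOD2, -6.92 for CCS and 5.70 for CAT. With 1 library left out, the log2 difference lay between -0.53 and -0.4995 for SOD1, -0.65 and -0.61 for SOD2, -7.57 and -7.32 for CCS, and 5.21 and 5.24 for CAT. Among genes above 0 in all 6 libraries (chosen after seeing the data), 30 list genes were higher in place of 58, since that restriction leaves out genes at 0 in control, and 25 were lower in place of 32, beside 2814 higher and 3626 lower of all 6925 genes in that fit. Of 45 list genes named by the rule, 40 kept direction and call under every alternative run. Median centring turned GPX4 to 0.044, PRDX1 to 0.33, ATOX1 to 0.17 and KEAP1 to 0.14, and quantile normalization turned FOXO3 to -1.78. FOXO3 passed the test as higher without MT-treated replicate 2 (log2 difference 0.14) or 3 (0.33) and after median centring (0.74), and as lower after quantile normalization. By the study's methods, oocytes of a run were pooled, divided at random among the treatments and treated in parallel. The labels do not say which libraries share a run. Samples with the same replicate number did not deviate together (correlations of -0.011, -0.00068 and 0.059 over genes), which cannot show that no runs were shared. The numbers were not taken to pair the libraries, and the main fit holds no pairing by run. A fit with the replicate block gave 58 higher and 33 lower list genes.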
